A study of Homo sapiens with 12 samples.

Results

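The spindle assembly checkpoint genes TTK, BUB1, BUB1B, BUB3, MAD1L1, MAD2L1, MAD2L1BP and CDC20 were followed across 12 Human Affymetrix Clariom D arrays of Ewing sarcoma (EwS) cells in which PRC1 was silenced by Dox-inducible shRNAs. The 8 genes were taken by name, each through its brightest probe set, out of 33458 named genes. All 8 lay above the signal minimum, set at 6.5 log2 for the mean of the Dox(−) arrays and passed by 15194 genes. The groups were RDES and SK-N-MC cells that carried an shRNA against the coding sequence of PRC1 (shCDS), an shRNA against its 3′ untranslated region (shUTR) or a non-targeting shRNA (shCtrl), each treated with 1 µg/ml Dox for 60 h (Dox(+)) or left without it (Dox(−)). All 6 derivative lines carried a lentiviral pLKO-TET-ON vector and had been selected with puromycin, and each condition was 1 array. Differences within a derivative line therefore have no replicate check, and the p-values across lines measure the spread between derivative lines of 2 cell lines.

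The spindle assembly checkpoint holds cells in metaphase until every chromosome is attached to spindle microtubules. At an unattached kinetochore the kinase TTK (MPS1) phosphorylates the scaffold KNL1, which brings in BUB3 with BUB1 and BUB1B (BubR1). BUB1 then helps recruit MAD1L1 with MAD2L1, and MAD2L1 is converted into the form that binds CDC20. MAD2L1, BUB1B, BUB3 and CDC20 form the mitotic checkpoint complex, which inhibits the anaphase-promoting complex (APC/C), the ubiquitin ligase that destroys securin and cyclin B. MAD2L1BP (p31comet) helps to take this complex apart when the checkpoint is silenced. Transcripts of many of these genes are periodic in cycling cells and peak in G2 and mitosis. PRC1, the targeted gene, bundles antiparallel microtubules of the central spindle in anaphase.

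The hairpin sequences are shown because the checkpoint genes are compared between the shCDS and shUTR lines. They are the part of the study's oligonucleotides before the hairpin loop, and were not matched to transcripts here. The shCtrl hairpin is non-targeting. They read 5′ to 3′, with no base marked by capitals:
shCDS: caggaacattcaaaggcattt
shUTR: gcctgacttctctaccacata
shCtrl: caacaagatgaagagcaccaa

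Promoter sequences from RefSeq (GRCh38.p14, 250 bases before to 50 after the gene start) were matched for 6 of the 8 genes, with 7 windows in all because MAD2L1BP had 2. BUB3 and TTK were not among them. They were searched on both strands for TTTGAA (also as TTCAAA) and TTTAAA, forms of the cell cycle homology region bound in many G2/M promoters, and for CCAAT (also as ATTGG), the box bound by NF-Y. No hits of these 3 motifs overlapped in the printed windows. The windows are shown to place the motifs in BUB1, BUB1B and CDC20, whose transcripts were much lower in RDES shCDS cells with Dox. PRC1 is shown beside them as the target of the hairpins, and was lower with Dox in every shPRC1 line. Motif letters are in capitals and the strand is that of the gene:
BUB1, chr2:110678113-110678142, minus strand, 79 to 50 bases upstream of the start: ATTGGccaaccttctgccgccgccaCCAAT
BUB1B, chr15:40161038-40161067, plus strand, 31 to 2 bases upstream: ccgttaaaTTTGAAacttggcggctagggg
CDC20, chr1:43358908-43358937, plus strand, 73 to 44 bases upstream: ggttggatTTTGAAggagCCAATaggcgct
PRC1, chr15:90994536-90994565, minus strand, 30 to 1 bases upstream: cgtggcgcggTTTGAAattttgcggggctc

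TTTGAA was present for 4 of the 6 genes (BUB1B, CDC20, MAD2L1 and 1 of the 2 windows of MAD2L1BP). That is 4 of 7 windows, against 15.2% of 35116 promoter windows. CCAAT was present for 3 of the 6 (BUB1, CDC20 and MAD2L1), in 3 of 7 windows, against 34.6% of windows. TTTAAA was present for 0 of the 6, in 0 of 7 windows, against 12.2%. BUB1 had no TTTGAA in this window and MAD1L1 had none of the 3 motifs, which says only that these letters were not there. Of the genes with TTTGAA, CDC20 differed by −1.48 log2, BUB1B by −1.10, MAD2L1 by −0.76 and MAD2L1BP by −0.15 log2 between Dox(+) and Dox(−) in RDES shCDS cells. BUB1 and MAD1L1, without it, differed by −1.65 and −1.10 log2. The TTTGAA of MAD2L1 lay downstream of the start, from base 25.

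Before the results, the arrays labelled RDES shCtrl have to be set apart. Over 859 genes that separated the shPRC1 lines of the 2 cell lines, on a scale where SK-N-MC is 0 and RDES is 1, the arrays labelled RDES shCtrl lay at 0.02 with Dox and 0.01 without Dox. In the same order, 0.15 and 0.16 were found for SK-N-MC shCtrl. That pair thus lay further from the SK-N-MC shPRC1 lines than the arrays labelled RDES shCtrl did. STAG2 had 9.32 log2 with Dox and 9.15 without in SK-N-MC shCtrl, and 6.01 and 6.10 in the arrays labelled RDES shCtrl. It lay between 5.84 and 6.06 log2 in the SK-N-MC shPRC1 lines and between 13.79 and 14.01 log2 in the RDES shPRC1 lines. The SK-N-MC shCtrl pair was kept as labelled too, and why it lay apart was not tested. Values from the arrays labelled RDES shCtrl are therefore given as labelled, and the mean changes and correlations were also computed without them. Of 9 Ewing sarcoma markers measured, 9 had a median of at least 6.5 log2, against 0 of 5 epithelial, 0 of 4 haematopoietic, 0 of 4 endothelial and 5 of 5 fibroblast markers. In the RDES shCDS line the summed fibroblast marker signal was 10.94 log2 with Dox and 10.53 log2 without, and 0 of the 5 were at least 1 log2 lower. In SK-N-MC shCDS 2 of the 5 were, and 1 each in SK-N-MC shUTR and RDES shUTR. Without Dox the sum ran from 10.53 log2 in RDES shCDS to 13.69 log2 in the arrays labelled RDES shCtrl. The median over the deposited probe sets lay between 5.292 and 5.397 log2 on every array.

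PRC1 itself, the check of the labels, was at 6.42% of its Dox(−) signal in RDES shCDS cells and 6.18% in SK-N-MC shCDS cells. It was at 36.2% in RDES shUTR cells and 13.1% in SK-N-MC shUTR cells, and between 92.4% and 97.6% in both shCtrl pairs. With Dox its signal was 10.54 log2 in RDES shCDS and 11.55 log2 in SK-N-MC shCDS cells. The shCDS hairpin thus left a smaller share of the PRC1 signal than shUTR in either cell line.

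The checkpoint genes had much lower signals with Dox in 1 derivative line, RDES shCDS. There all 8 lay below 0, as did 55.7% of all genes. Their median difference was −1.05 log2, against −0.05 log2 over all genes. Of the 8, 5 were at least 1 log2 lower with Dox (2-fold), a size that 3.97% of all genes reached in this line. Those were BUB1, CDC20, BUB1B, MAD1L1 and TTK, while MAD2L1, BUB3 and MAD2L1BP differed by less. Of the 5, 2 (BUB1 and CDC20) stayed at that size when every array was centred on its median over the genes above the signal minimum. Fewer cells in G2 and mitosis and less of a transcript per cell cannot be told apart in bulk RNA. After PRC1 silencing in synchronized EwS cells, the paper reports that the share of G2/M cells was higher over time. The cell cycle phases of the cells on these arrays were not tested. The other lines had 0 of 8 at that size, where the share of all genes was 0.217% in RDES shUTR, 1.48% in SK-N-MC shCDS, 2.96% in SK-N-MC shUTR, 0.079% in the arrays labelled RDES shCtrl and 0.408% in SK-N-MC shCtrl. On the RDES shCDS array with Dox, each of the 8 had its lowest signal of the 12 arrays, and 14.8% of all genes had their lowest signal on that array.

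**Figure D1:**
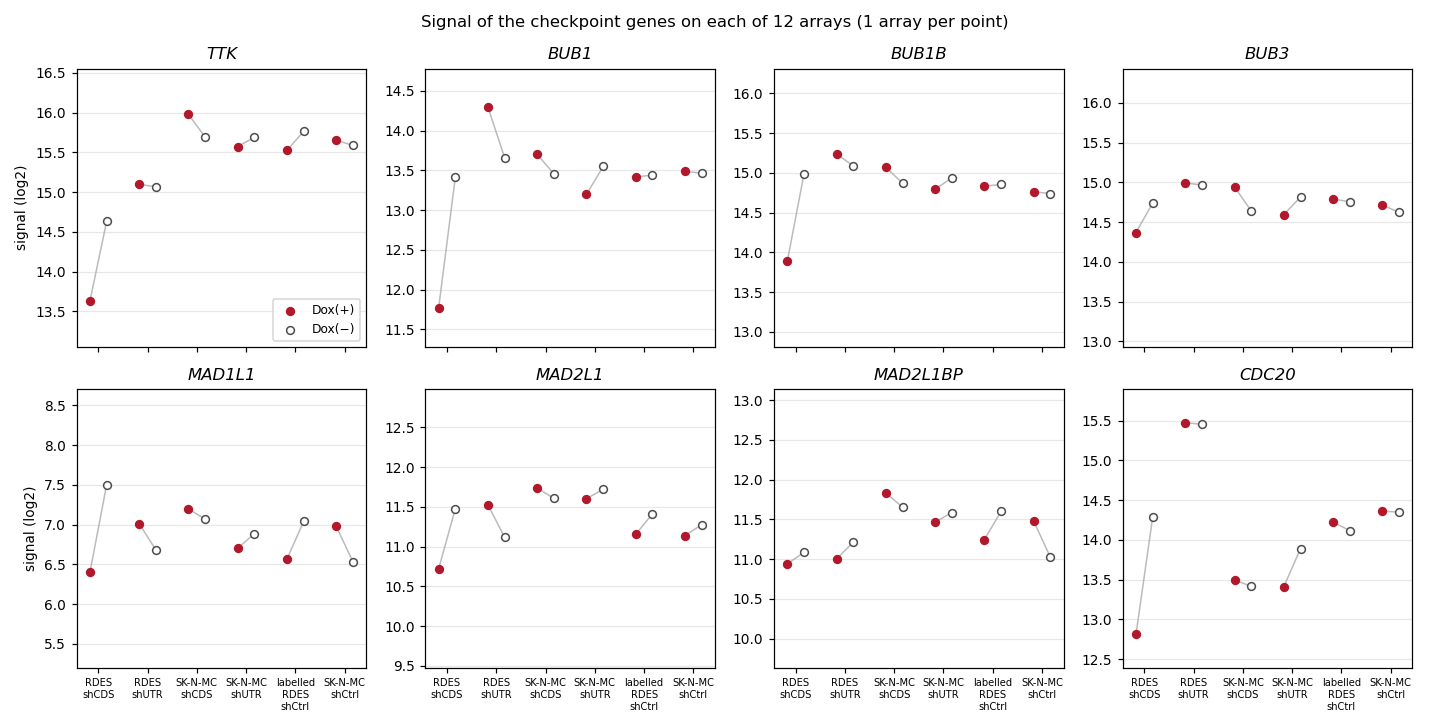
Log2 signal of each checkpoint gene (y axis, same span in every panel) in 6 derivative lines (x axis), 1 point per array, with Dox(+) in red on the left and Dox(−) open on the right of each pair. The red point of RDES shCDS is the lowest of the 12 in every panel.

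The upstream kinases are TTK and BUB1, which also phosphorylates histone H2A at centromeres. TTK (chr6:80004649-80042527, GRCh38.p14) had 13.63 log2 with Dox and 14.63 without in RDES shCDS, and 15.10 and 15.07 in RDES shUTR. It had 15.98 and 15.69 in SK-N-MC shCDS, 15.57 and 15.69 in SK-N-MC shUTR, 15.53 and 15.77 in the arrays labelled RDES shCtrl, and 15.66 and 15.59 in SK-N-MC shCtrl. The difference of −1.002 log2 in RDES shCDS left 49.9% of the Dox(−) signal and was the member just inside the 1 log2 limit, and MAD2L1 at −0.76 log2 was the one just outside it. TTK in the RDES shCDS line was already the lowest of the 6 lines without Dox.

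BUB1 (chr2:110637528-110678063) showed the largest difference of the 8 in either direction. It had 11.76 log2 with Dox and 13.41 without in RDES shCDS, which is 31.9% of the Dox(−) signal, and 14.30 and 13.66 in RDES shUTR, which is 155%. SK-N-MC cells had 13.70 and 13.46 log2 with shCDS and 13.20 and 13.55 log2 with shUTR. The control pairs had 13.42 and 13.44 log2 in the arrays labelled RDES shCtrl and 13.49 and 13.46 log2 in SK-N-MC shCtrl. The Dox(+) arrays of the RDES lines were thus the lowest and the highest of the 12, while the 6 arrays without Dox averaged 13.50 ± 0.09 log2 (SD, n = 6 derivative lines). Only 0.678% of all genes had a lower difference than BUB1 in RDES shCDS, and 92.0% had a lower one in RDES shUTR.

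BUB1B (chr15:40161069-40221123), the BUB1-related subunit that blocks CDC20, had 13.89 log2 with Dox and 14.99 without in RDES shCDS, or 46.5% of the Dox(−) signal. Its other 10 arrays ran between 14.74 and 15.24 log2, so the RDES shCDS array with Dox stood alone. A further probe set, shared between BUB1B and PAK6, was left out and lay between 4.94 and 5.25 log2. BUB3 (chr10:123154402-123170467), the adaptor that carries BUB1 and BUB1B to KNL1, had 14.37 and 14.74 log2 in RDES shCDS with and without Dox, a difference of −0.37 log2. That is 77.4% of the Dox(−) signal, and 23.4% of all genes had a lower difference in this line. BUB3 had 14.99 and 14.97 log2 in RDES shUTR, 14.94 and 14.64 in SK-N-MC shCDS, and 14.59 and 14.82 in SK-N-MC shUTR, again Dox(+) before Dox(−). The pairs were 14.79 and 14.75 in the arrays labelled RDES shCtrl, and 14.72 and 14.62 in SK-N-MC shCtrl. So the 2 partners that BUB3 carries had a much larger difference in RDES shCDS cells than BUB3 itself.

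MAD1L1 (chr7:1815795-2232945), which anchors MAD2L1 at kinetochores, was the member nearest to the signal minimum, at 6.95 ± 0.34 log2 without Dox (SD, n = 6 derivative lines). It had 6.398 log2 with Dox and 7.502 without in RDES shCDS, a difference of −1.10 log2 in which the Dox(+) signal lay under the 6.5 log2 minimum. The difference was 0.33 log2 in RDES shUTR, 0.13 in SK-N-MC shCDS and −0.18 in SK-N-MC shUTR. In the control pairs it was −0.47 log2 in the arrays labelled RDES shCtrl and 0.45 log2 in SK-N-MC shCtrl, a gap close to the size of the RDES shCDS difference. The Dox(−) array of RDES shCDS was also the highest of the 12 for this gene. MAD2L1 (chr4:120055623-120066848), the subunit that changes shape to bind CDC20, had 10.72 log2 with Dox and 11.48 without in RDES shCDS, or 59.1% of the Dox(−) signal. It had 11.53 and 11.12 log2 in RDES shUTR, which is 133%, and its differences in the other 4 lines lay between −0.26 and 0.13 log2.

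CDC20 (chr1:43358981-43363203), the APC/C activator that the checkpoint holds back, had 12.81 log2 with Dox and 14.29 without in RDES shCDS, or 35.9% of the Dox(−) signal. It had 15.48 and 15.45 log2 in RDES shUTR, 13.50 and 13.41 in SK-N-MC shCDS and 13.41 and 13.89 in SK-N-MC shUTR. The control pairs had 14.22 and 14.12 log2 in the arrays labelled RDES shCtrl and 14.36 and 14.35 in SK-N-MC shCtrl. CDC20 was the member with the widest spread between derivative lines without Dox, at 14.25 ± 0.68 log2 (SD, n = 6), and the RDES shCDS and RDES shUTR lines alone lay at 14.29 and 15.45 log2.

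MAD2L1BP (chr6:43629540-43640941), the silencing factor, did not follow the others. It had 10.94 log2 with Dox and 11.09 without in RDES shCDS, a difference of −0.15 log2, and 41.0% of all genes had a lower one. Its differences were −0.21 log2 in RDES shUTR, 0.18 in SK-N-MC shCDS and −0.12 in SK-N-MC shUTR. Those of the control pairs were wider, at −0.36 log2 in the arrays labelled RDES shCtrl and 0.46 log2 in SK-N-MC shCtrl.

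**Figure D2:**
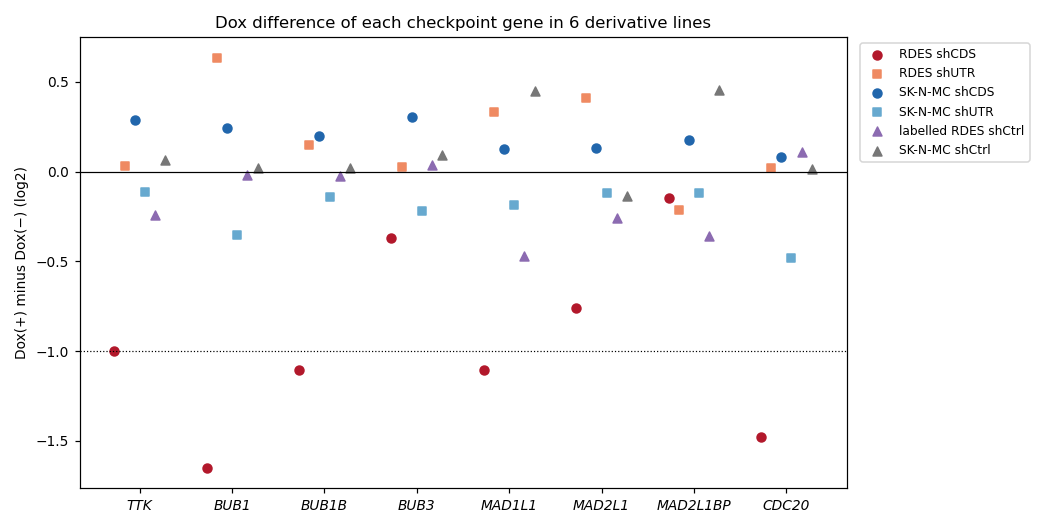
Difference in log2 signal, Dox(+) minus Dox(−) (y axis), of each checkpoint gene (x axis) in 6 derivative lines, 1 point per line. The dotted line marks −1 log2, which 5 genes reached in RDES shCDS (2 after centring of the arrays) and 0 in any other line.

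In the other derivative lines the checkpoint genes kept close to the bulk of the array. Their median difference was 0.09 log2 in RDES shUTR, against 0.17 over all genes, and 0.19 log2 in SK-N-MC shCDS, against 0.07. It was −0.16 log2 in SK-N-MC shUTR, against −0.15, with all 8 genes below 0 where 65.9% of all genes were. It was −0.13 log2 in the arrays labelled RDES shCtrl, against −0.07, and 0.04 log2 in SK-N-MC shCtrl, against 0.11. All 8 were above 0 in SK-N-MC shCDS, where 41.5% of all genes were below 0. None of the 8 differed there by more than 0.30 log2. For centring, the median of each array over the genes above the signal minimum was used, not that over all deposited probe sets. Centring moved the differences by 0.11 log2 in RDES shCDS, −0.24 in RDES shUTR, −0.02 in SK-N-MC shCDS and 0.25 in SK-N-MC shUTR. In the control pairs the shift was 0.06 log2 in the arrays labelled RDES shCtrl and −0.15 in SK-N-MC shCtrl. After centring all 8 stayed below 0 in RDES shCDS and above 0 in SK-N-MC shCDS. By contrast, 6 of 8 were above 0 in SK-N-MC shUTR and 5 of 8 below 0 in RDES shUTR. The shares of all genes were not counted after centring, so these counts have no background beside them. In RDES shCDS only BUB1 at −1.54 and CDC20 at −1.37 log2 then passed 1 log2, with BUB1B and MAD1L1 both at −0.996 and TTK at −0.89 log2 just short of it.

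**Figure D3:**
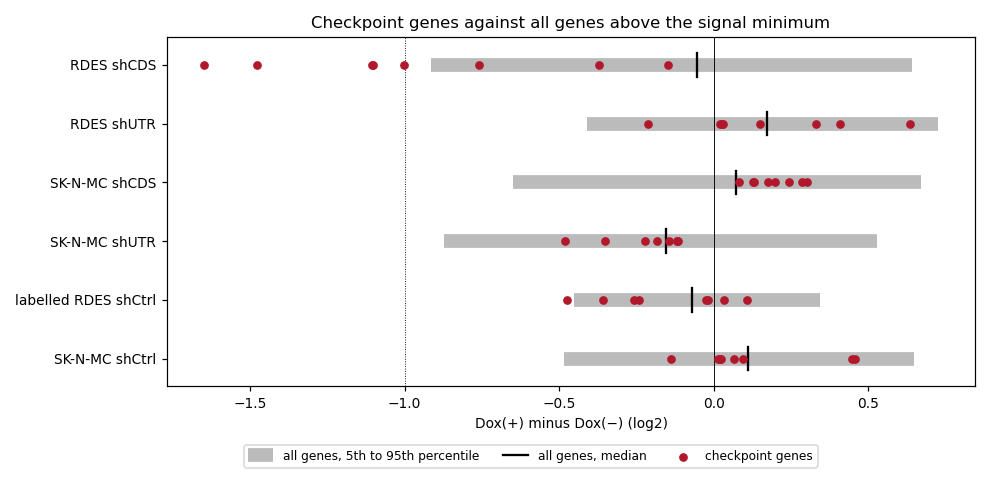
Dox(+) minus Dox(−) in log2 (x axis) of the 8 checkpoint genes (red points) in each derivative line (rows), over the 5th to 95th percentile (grey bar) and median (black tick) of the 15194 genes above the signal minimum. The red points reach left of the grey bar in RDES shCDS, where the median of the 8 was −1.05 log2 and that of all genes −0.05 log2.

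When the shCtrl difference was subtracted and the 4 shPRC1 lines were averaged, no checkpoint gene passed the test. The mean change was −0.52 log2 for CDC20 (SE 0.41), −0.28 for BUB1 (SE 0.50), −0.22 for BUB1B (SE 0.37) and −0.19 for MAD1L1 (SE 0.39). It was −0.13 for BUB3 (SE 0.31), −0.13 for MAD2L1BP (SE 0.30), −0.11 for TTK (SE 0.35) and 0.11 for MAD2L1 (SE 0.35). Their median was −0.16 log2, with 7 of 8 below 0, against −0.01 log2 and 51.3% over all genes. The Benjamini-Hochberg adjusted p of limma was above 0.99 for each, as for PRC1 at −3.02 log2 (SE 0.56), whose values after subtraction ran from −3.93 to −1.43 log2. Limma called 0 genes in all (0% of 15194), with 400 at an unadjusted p under 0.05, so the count of members called (0 of 8) was that of the array. In 14 other settings of the fit, the smallest adjusted p of any member was 0.688.

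The lines had values on both sides of 0. After subtraction the members' median was −0.70 log2 in RDES shCDS, 0.22 in RDES shUTR, 0.19 in SK-N-MC shCDS and −0.35 in SK-N-MC shUTR (SD 0.44, n = 4 lines). Without the RDES shCDS line the median of the mean changes was 0.08 log2, with BUB1 at 0.24, TTK at 0.13, BUB1B at 0.08 and MAD1L1 at 0.07 log2 turned to the other side of 0, and CDC20 at −0.16 log2. With the arrays labelled RDES shCtrl left out and the SK-N-MC shCtrl pair subtracted from all 4 lines, the median was −0.29 log2. MAD1L1 was then at −0.65 and MAD2L1BP at −0.53 log2. The SK-N-MC shCtrl pair itself lay apart from the SK-N-MC shPRC1 lines, as given above. With the arrays labelled RDES shCtrl left out of the fit with its cell line term, only the SK-N-MC shPRC1 lines entered the change. RDES shCDS then had no part in it, and the median was −0.07 log2. Limma called 0 genes in both.

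Whether the Dox difference depended on the cell line or the hairpin was tested over the 4 shPRC1 lines. RDES minus SK-N-MC ran from −0.57 log2 for TTK to −0.18 for MAD2L1, with a limma adjusted p above 0.99 for each. The test called 0 of the 8 members and 0.0856% of all genes. For shCDS minus shUTR the members ran from −0.84 log2 for BUB1 to 0.18 log2 for MAD2L1BP, again with an adjusted p above 0.99, and 0 of 8 were called where 0.105% of all genes were. BUB1 averaged −0.70 log2 over the shCDS lines and 0.14 log2 over the shUTR lines, and CDC20 −0.70 and −0.23 log2. For PRC1 shCDS minus shUTR was −1.79 log2, with an adjusted p of 0.0591. These fits have 1 residual degree of freedom, and limma gave every gene the same SE of 0.45 log2. A difference confined to 1 of the 4 lines, as in RDES shCDS, has no test of its own in this design.

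Without Dox, 2 of the 8 members differed between RDES and SK-N-MC, CDC20 upwards and TTK downwards. CDC20 had 14.29 and 15.45 log2 in the RDES shCDS and shUTR lines, against 13.41 and 13.89 log2 in the SK-N-MC lines with the same hairpins. RDES minus SK-N-MC was 1.22 log2 (SE 0.38, limma adjusted p = 0.0416). TTK had 14.63 and 15.07 log2 in the RDES lines, against 15.69 log2 in both SK-N-MC lines, a difference of −0.84 log2 (SE 0.22, adjusted p = 0.0241). Limma called 34.8% of all genes in this comparison, 13.9% higher and 20.9% lower in RDES, so 2 of 8 is a share no higher than that of the array. MAD2L1BP at −0.47 log2 (adjusted p = 0.108) and MAD2L1 at −0.37 log2 (adjusted p = 0.236) did not pass, and the other 4 lay between 0.04 and 0.13 log2.

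Both calls were lost when certain lines were left out. CDC20 was at 0.98 log2 (adjusted p = 0.105) without SK-N-MC shCDS and at 0.64 log2 (adjusted p = 0.0791) without RDES shUTR. TTK stayed at −0.84 log2 when either SK-N-MC line was left out, with an adjusted p of 0.115 each time. On the arrays with Dox, CDC20 was at 0.69 log2 (adjusted p = 0.547) and TTK at −1.41 log2 (adjusted p = 0.0682). TTK was also just short after centring, at −0.72 log2 with an adjusted p of 0.0618. With all 6 lines as labelled, in which the shCtrl arrays of both labels enter, limma called 0 genes.

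The other genes of the pathway were set beside the 8 by role. In RDES shCDS 3.97% of all genes were at least 1 log2 lower with Dox. The counts for the lists were not repeated after centring. Median differences in RDES shCDS were −1.15 log2 for kinetochore receptors, with 9 of 15 at least 1 log2 lower, among them KNL1, the scaffold for BUB1 and BUB3, at 8.78 log2 with Dox and 10.17 without. SPC24 of the NDC80 complex was at 8.54 and 10.05 log2. For the APC/C subunits, the ligase that the checkpoint inhibits, the median was −0.23 log2 with 0 of 14 at that size. Single subunits lay on either side, from ANAPC15 at −0.96 and CDC27 at −0.71 log2 to ANAPC13 at 0.74 log2. For the APC/C coactivator FZR1, the E2 enzymes UBE2C and UBE2S and the inhibitor FBXO5 the median was −1.40 log2 with 3 of 4. UBE2S, which extends the ubiquitin chains, had 9.10 log2 with Dox and 11.14 without. So both E2 enzymes of the APC/C were lower on the same array as CDC20, while no subunit of the ligase itself reached 1 log2 in this line.

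For APC/C substrates and anaphase genes the median was −1.20 log2 with 6 of 9, CCNB1 (cyclin B1) at 11.61 log2 with Dox and 13.11 without. PTTG1, which encodes securin, differed by only −0.40 log2. For the silencing and remodelling genes, mostly PP1 and PP2A-B56 phosphatase subunits, the median was −0.01 log2 with 0 of 10. TRIP13, the ATPase that acts with MAD2L1BP, was at 11.85 log2 with Dox and 12.47 without, a difference of −0.62 log2, unlike MAD2L1BP at −0.15 log2. For the checkpoint-linked kinases it was −1.09 log2 with 4 of 4, AURKB (Aurora B) at 8.61 log2 with Dox and 11.03 without. AURKA at −1.08, PLK1 at −1.10 and HASPIN at −1.03 log2 passed 1 log2 by less than the 0.11 log2 shift of centring. No gene of these lists passed limma's test of the mean change over the 4 lines, which called 0 of 15194 genes on the array.

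Genes of G2/M and S phase outside the checkpoint were lower on the same array. The share of all genes at least 1 log2 lower there was 3.97%, and these counts too were not repeated after centring. Of 17 other G2/M genes 16 were at least 1 log2 lower with a median of −1.47 log2, among them FOXM1, a transcription factor of G2/M genes, at 11.02 log2 with Dox and 13.67 without. Of 17 S phase genes 9 were, with a median of −1.02 log2, RRM2 (ribonucleotide reductase) at 12.24 and 13.86 log2. The medians of these lists in the other 5 lines lay between −0.42 and 0.20 log2 for G2/M and between −0.15 and 0.10 log2 for S phase. The part of these proliferation genes in the checkpoint result was not tested.

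**Figure D4:**
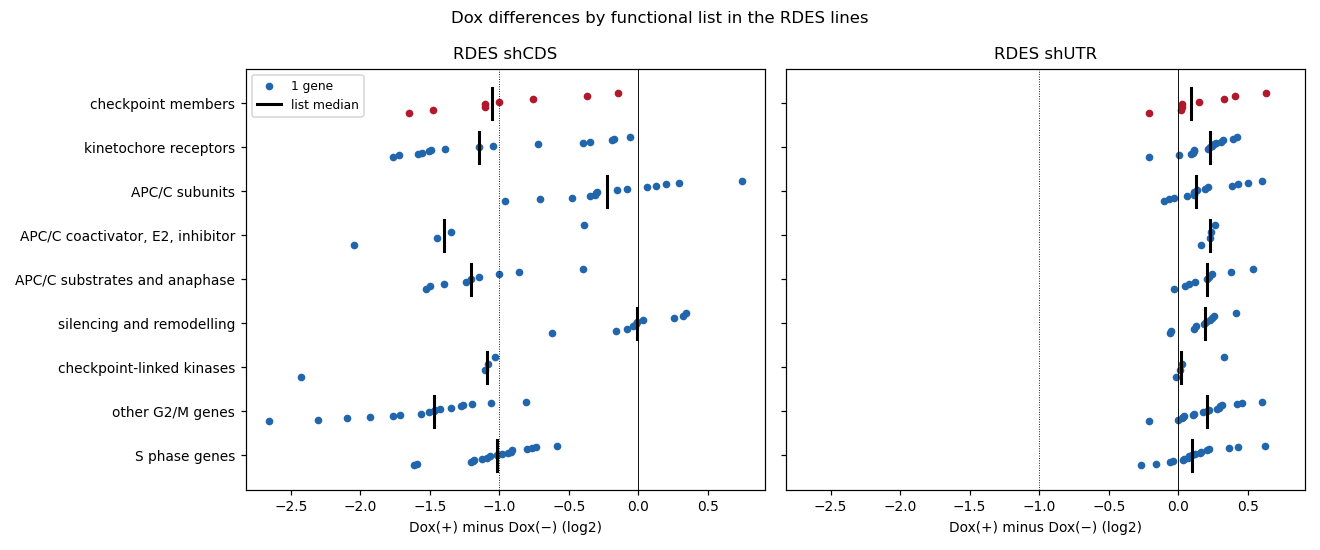
Dox(+) minus Dox(−) in log2 (x axis) of every gene above the signal minimum in 9 functional lists (rows), for RDES shCDS on the left and RDES shUTR on the right, with black bars at list medians. In RDES shCDS the APC/C subunits and the silencing list stay near 0, at −0.23 and −0.01 log2, while the checkpoint genes (red) have a median of −1.05 log2.

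The likeness of the 8 genes across the 6 lines is given as a description only, since all genes of an array share the offset of their line described above. Over the 28 pairs of members the Pearson r of the differences had a median of 0.86 and ran from 0.11, for MAD2L1BP with MAD2L1, to 0.97. MAD2L1BP was the least like the others, with r = 0.15 to BUB1 and r = 0.21 to CDC20. The median was 0.54 without RDES shCDS and 0.88 without the arrays labelled RDES shCtrl, over 5 lines each. Over the 12 arrays, the genes most like the mean level of the 8 were UBE2S (r = 0.98), E2F8 (r = 0.97), RRM2 (r = 0.97), NCAPH (r = 0.97) and KIF20B (r = 0.97). Over the 10 arrays without those labelled RDES shCtrl, r lay between 0.97 and 0.98 for these 5. E2F8 is a repressor of the E2F family, NCAPH a condensin subunit and KIF20B a mitotic kinesin. These 5 differed by −1.12 to −2.04 log2 in RDES shCDS, against −0.95 log2 for the mean of the 8, so the RDES shCDS array with Dox stands apart in all of these correlations.

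**Figure D5:**
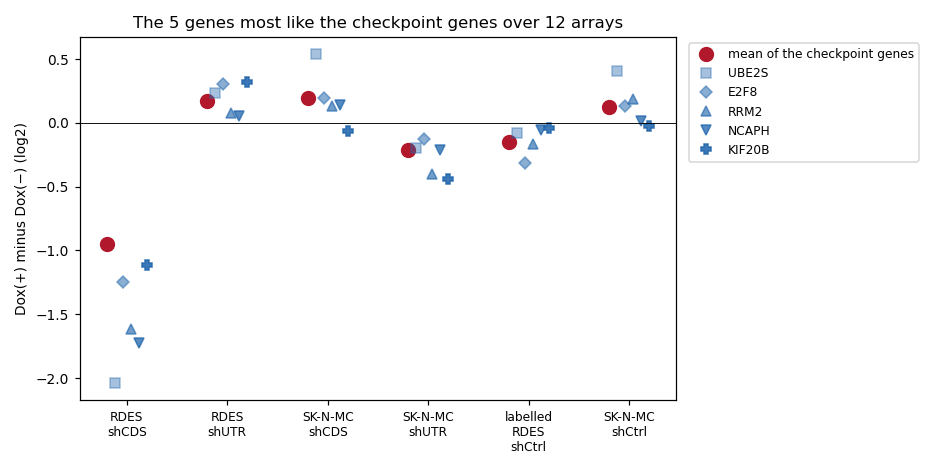
Dox(+) minus Dox(−) in log2 (y axis) in 6 derivative lines (x axis) for the mean of the 8 checkpoint genes (red circles) and the 5 genes with the highest Pearson r to it over 12 arrays (blue symbols). In RDES shCDS the 5 genes lie between −2.04 and −1.12 log2, below the mean of the 8.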

How the data were processed

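Log2 signals per probe set were deposited. The authors made them by SST-RMA (background correction, quantile normalization and summary at the gene level). The submitters' processing notes name RMA and hg38. Of 135750 probe sets, 36176 had 1 gene symbol and were used, 1119 had several and 98455 none, and 623 older symbols were updated. A gene was represented by its probe set with the highest mean over the 12 arrays. As in the study's methods, genes with a mean of at least 6.5 log2 without Dox were kept.

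Dox(+) minus Dox(−) differences per derivative line entered linear models in R 4.3.3 with limma 3.58.1 (moderated by eBayes, two-sided, Benjamini-Hochberg over 15194 genes, threshold 0.05), with terms for cell line and shPRC1 against shCtrl. Single lines were described by differences of at least 1 log2. The fit was tested on simulated data with independent errors, the same spread for all genes and an equal shift in every shPRC1 line. That simulation says nothing of a fall confined to RDES shCDS. Precision is limited by the number of arrays. The members, gene lists and tests were chosen with earlier results of these data known. Besides the 8 members and PRC1, the rule named from each list up to 3 genes of largest mean change and the 5 genes most correlated with the members. FBXO5, ANAPC15, CDC27 and TRIP13 are outside it and were named after their values were seen. Alternatives covered the filter, prior variance, probe set choice, centring, shCtrl subtraction, cell line term, pairing and leaving out lines. Arrays labelled RDES shCtrl were kept under their label.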

Additional observations from a re-analysis of the deposited data

How the results depend on the processing

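The members' median change stayed within the spread between lines in every setting tried, from −0.39 log2 without RDES shUTR to 0.08 log2 without RDES shCDS, which is the only setting that turned its sign. No member was called under any of them. The count of genes called for PRC1 silencing was 1 (PRC1) in place of 0 when the prior variance followed the signal, and 0 to 1 over the fits that left out 1 line. It stayed at 0 with no replicate block for derivative line. For the Dox difference in RDES against SK-N-MC the count was 1 after centring, in place of 13. For shCDS against shUTR it was 31 without the filter and 2 after centring, in place of 16. Leaving out a line could not be run for these last 2 fits, which then have no residual degrees of freedom. The 5286 genes that differed in level without Dox became 2700 on the arrays with Dox, 0 with all 6 lines as labelled, and 3316 to 6555 when 1 line was left out. The count of members at least 1 log2 lower in RDES shCDS was 2 in place of 5 after centring. In RDES shUTR, 1 member (BUB1) was at least 0.58 log2 higher, where 0 reached 1 log2. In that line 92.0% of all genes had a lower difference than BUB1, and the 95th percentile of all genes was 0.73 log2. Small mean changes turned sign in several settings. Leaving out a shCtrl pair made the fit rest on the shPRC1 lines of the other cell line alone. Without SK-N-MC shCtrl, where only the RDES lines counted, MAD1L1 was at 0.09 and MAD2L1BP at 0.18 log2. Without the arrays labelled RDES shCtrl, where only the SK-N-MC lines counted, BUB1B was at 0.01 and TTK at 0.02 log2. MAD2L1 was at −0.13 log2 without RDES shUTR and at −0.08 log2 without subtraction of shCtrl. The cause of the differences between lines was not tested. With 1 array per condition, signal differences within a line carry no error estimate, and MAD1L1 lay near the signal minimum.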
